A study of Homo sapiens with 24 samples.

Results

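The step from 1 h to 2 h of dexamethasone was examined by setting the 6 libraries of newly made RNA at 2 h against the 6 libraries at 1 h, with the cell line as a blocking term. These 12 libraries were chosen by time alone from the 24 of the series, and the comparison made no use of the ethanol libraries at 0 h. The RNA was measured by 4sU-seq, in which cells take up 4-thiouridine, build it into the RNA they make, and give up that labelled RNA to a streptavidin pulldown before sequencing. The study used the assay to ask how RNA binding by the glucocorticoid receptor (GR, gene NR3C1) bears on transcription after hormone. Comparing 1 h with 2 h asks which genes changed their output between the first and the second hour.

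The cells were U2OS, a human osteosarcoma line with little GR of its own. Each of the 3 lines carried a GR construct with a C-terminal HaloTag, driven by a CMV promoter in a PiggyBac vector, selected with puromycin and sorted on a dye bound to the tag. The construct was wild-type GR in wt, GR K492A (lower RNA binding, named SoF for separation of function) in SoF, and GR R470A (a control for lower DNA binding) in Ctrl. Each line was 1 sorted pool, so construct and pool cannot be told apart. All 12 libraries came from cells in charcoal-stripped serum given 100 nM of the synthetic glucocorticoid dexamethasone for 1 or 2 h, and 200 µM 4-thiouridine for the last 1 h. The 0 h cells, shown only for context, received 0.01% ethanol. Medium was replaced at treatment, so time in hormone and time since the medium change cannot be told apart. The study carried out the biotin labelling and pulldown of RNA in pairs of replicates. If a pair is the 2 libraries of a line and time, pulldown and time cannot be told apart either. Each line and time had 2 libraries, which the labels do not describe as separate cultures, so the p-values measure only the spread between these samples.

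Ligand-bound GR enters the nucleus, binds DNA and raises genes such as FKBP5, while at other sites it lowers transcription driven by AP-1 and NF-kB. Immediate-early genes such as FOS and EGR1 are switched on within minutes of a stimulus, without new protein, and are switched off again by repressors and RNA decay factors that belong to the same wave. Because 4-thiouridine marks only RNA made in the labelling window, the assay follows such waves more closely than total RNA does.

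Total exon counts were 9056350 to 12635192 at 1 h and 9501281 to 15060777 at 2 h. The first principal component of the 12 libraries held 47.2% of the variance, and time accounted for 87.7% of its spread. Line accounted for 69.7% of the spread of the second component, which held 13.2%. Of 13 listed mesenchymal and osteoblast markers, 11 were tested. COL1A2 and TWIST1 did not pass the filter on low counts, with at most 8 and 1 counts in any library. Highest among the 11 were FN1, COL1A1 and VIM, with means at 2 h of 1576, 640.8 and 632.9 CPM (counts scaled to the library total after TMM factors). Of 14 markers of epithelial, blood, liver and neural cells, 7 passed the filter on low counts, and the highest mean at 2 h among them was 10.5 CPM, for RBFOX3. A library property also moved with time: the trend of log2 level on transcript GC content was -0.33 to -0.06 per 10 percentage points at 1 h and -0.04 to 0.18 at 2 h. Its part in the results was not tested, and counts for several gene groups are therefore also given from a GC-adjusted paired fit, chosen after seeing the data, in which each library's GC trend was removed and libraries were paired by line and replicate number.

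Of 21690 genes tested, 11116 (51.2%) passed edgeR's quasi-likelihood test at a Benjamini-Hochberg adjusted p under 0.05 and are referred to as called, 5795 rising (26.7%) and 5321 falling (24.5%). Counts for gene groups below are to be read against these shares, and a count near them does not set a group apart. The median size of a called change was 0.59 on the log2 scale, and 1843 called genes (8.50%) changed by at least 1, of which 929 rose (4.28%) and 914 fell (4.21%). The lowest library of the higher time lay above the highest of the other time for 3877 genes (17.9%), with 2438 higher at 2 h (11.2%) and 1439 lower (6.63%). Among called genes, 11049 moved in the same direction in each of the 3 lines. The calls were made on these lines together and favour genes on which they agree, so this count is not independent evidence of agreement. The split between rising and falling genes depended on scaling: it was 4459 to 7164 with upper-quartile factors and 4530 to 6903 with library totals alone, under which the median of all genes was -0.13 and -0.11 in place of -0.01. In the GC-adjusted paired fit, 11232 of 22419 genes were called (50.1%), 6295 rising (28.1%) and 4937 falling (22%), and 7456 genes kept their call and direction.

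**Figure D1:**
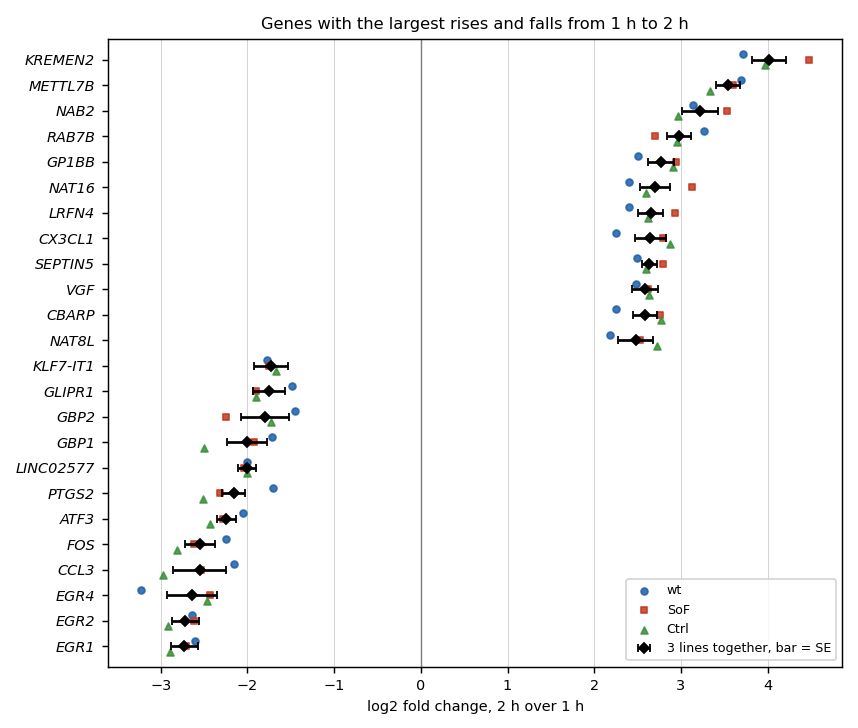
Log2 fold change from 1 h to 2 h of the 12 rising and 12 falling named genes with the largest changes. Diamonds with bars are the 3 lines together with the standard error, and coloured points are wt, SoF and Ctrl alone. Genes shown have a mean of at least 5 CPM. KREMEN2 lies at 4.02 and EGR1 at -2.73. Genes were chosen to have all 3 lines on the same side of 0.

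Among genes with a mean of at least 5 CPM, the largest falls were of immediate-early transcription factors. EGR1 (ENSG00000120738.8, chromosome 5, 138465479 to 138469303, hg38), a zinc finger activator of growth-response genes, stood at 3182 to 6055 CPM at 1 h (median 4580) and at 313.2 to 814.6 CPM at 2 h (median 734). No 2 h library reached the lowest 1 h library. The fall was 6.62-fold (log2 fold change -2.73, SE 0.16, edgeR adjusted p = 2.38e-10). EGR2, its close relative, went from a median of 185 CPM (102.4 to 344.1) to 28.3 CPM (12.01 to 46.5), again with no overlap, and fell by 2.71 on the log2 scale (SE 0.15). EGR4, expressed at a lower level, went from 16.2 to 2.63 CPM on average and fell by 2.64. EGR3, at 2.20 and 1.76 CPM, did not pass the test. NR4A1 and NR4A2, orphan nuclear receptors of the same wave, had log2 fold changes of -0.77 and -1.22 and both fell, whereas NR4A3 did not pass the test at -0.57. With the libraries paired by line and replicate number, NR4A3 was called (-0.48).

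The AP-1 family, whose FOS and JUN members pair to bind DNA, was divided. FOS (chromosome 14, 75278826 to 75282230, hg38) lay between 258.6 and 711.1 CPM at 1 h (median 462) and between 52.6 and 96.3 CPM at 2 h (median 80.7), and fell 5.84-fold (log2 fold change -2.55, SE 0.17). ATF3, a stress-induced repressor, lay between 347.9 and 464.9 CPM at 1 h and between 65.3 and 113.4 CPM at 2 h, and fell 4.73-fold with an SE of 0.11 on the log2 scale. For both genes every 2 h library lay below every 1 h library. FOSB and JUN also fell, by 1.72 and 0.69. Of the 14 AP-1 factors tested, 7 rose and 4 fell, against 4 and 5 in the GC-adjusted paired fit. MAFK, a small partner without an activation domain, rose by 1.30, and BATF3 by 1.23. JUND rose by 0.46 but had a log2 fold change of -0.22 in the GC-adjusted paired fit, and the rise of JUNB, 0.56, became 0.02 there.

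While the EGR genes fell, their co-repressors rose. NAB2 (chromosome 12, 57089043 to 57095476, hg38), which binds EGR1 and represses its targets, lay between 33.5 and 130.9 CPM at 1 h (median 59.4) and between 515.9 and 840.3 CPM at 2 h (median 601). It rose 9.32-fold (log2 fold change 3.22, SE 0.21, adjusted p = 9e-10), the third largest rise at a mean of at least 5 CPM, and at 2 h it was above its 0 h range of 107.2 to 282.9 CPM in all 6 libraries. Its relative NAB1 went from a median of 63.0 CPM (36.3 to 96.0) to 254 CPM (133.1 to 371.3) and rose by 1.99 (SE 0.16). Neither pair of groups overlapped. Exons of NAB1 and NAB2 overlap genes on the opposite strand, and strand-aware counting is stated only in the title of the deposited table, so their counts carry that uncertainty. The same holds for MAFK, IER5L, KLF16, SCNN1A, ARRDC2, CEBPB, ZBTB16, CCN2, TAGLN and MYC. Of the 9 members of the EGR and NR4A group tested, 2 rose (NAB1 and NAB2) and 5 fell (6 with the libraries paired), with a median of -0.77 against -0.01 over all genes.

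Promoter stretches of 4 genes of this wave are shown as examples of CArG, TATA and GC boxes. They are RefSeq sequences on GRCh38.p14, read 5′ to 3′ on the gene's strand, with motif matches in capitals. EGR1 (chr5:138465359-138465418, + strand) and SRF (chr6:43171209-43171268, + strand) are marked for CArG boxes, the binding site of serum response factor, FOS (chr14:75278768-75278827, + strand) for TATAAA, and NAB2 (chr12:57088954-57089063, + strand) for GGGCGG on either strand.
EGR1: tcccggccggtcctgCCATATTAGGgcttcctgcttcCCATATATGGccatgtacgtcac
SRF: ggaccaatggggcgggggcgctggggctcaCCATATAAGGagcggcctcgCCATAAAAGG
FOS: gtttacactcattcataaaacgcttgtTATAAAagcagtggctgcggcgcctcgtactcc
NAB2: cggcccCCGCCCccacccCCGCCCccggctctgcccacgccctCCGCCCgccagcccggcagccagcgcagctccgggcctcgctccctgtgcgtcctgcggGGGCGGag

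The stretches of EGR1 and SRF each hold 2 CArG boxes, and that of NAB2 holds 4 GC boxes. Stretches were placed by RefSeq start sites, and those of FOS and NAB2 end past the gene starts given above. By those gene coordinates the last GC box of NAB2 lies inside the gene. Within the promoter window given below, a CArG box was found in 1 of the 7 matched promoters of the EGR and NR4A group and in 0 of the 11 of the AP-1 group. Boxes further upstream were not looked for, so these counts do not show that the genes lack them. SRF, which encodes serum response factor itself, went from 206.3 to 391.5 CPM at 1 h to 92.5 to 181.0 CPM at 2 h without overlap, and fell by 0.97 on the log2 scale (SE 0.16). Over the 12508 tested genes with a matching RefSeq promoter (250 bases before to 50 after the start), a CArG box was found in 1.06%, on either strand, in 5.24% of the 210 genes that fell by at least 1 and in 1.51% of the 598 that rose by at least 1. TATAAA, on either strand, was in 6.36% of all, 23.3% of the strongly falling and 5.02% of the strongly rising promoters. GGGCGG was in 67.2%, 35.2% and 77.8% in the same order, and the AP-1 site TGANTCA in 5.01%, 9.52% and 5.52%. The median promoter GC content was 64.7% for all, 52.2% for strongly falling and 70.5% for strongly rising genes. A match describes letters in this window and is not a measured binding site.

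**Figure D2:**
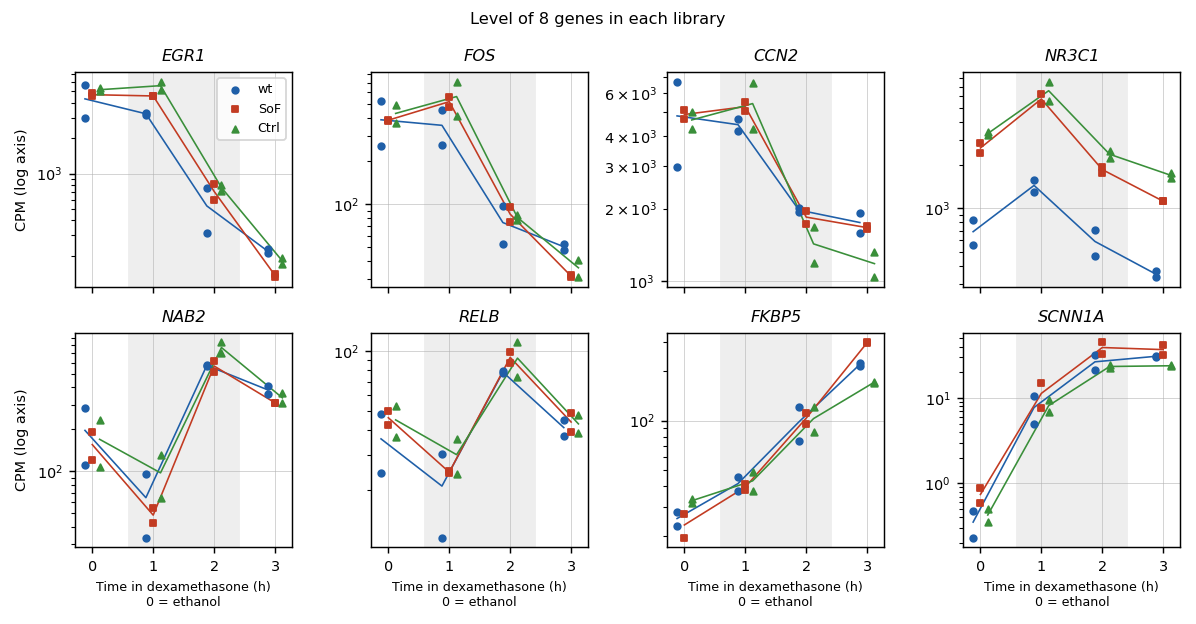
Level of 8 genes in every library, in CPM on a log axis, against hours in dexamethasone (0 is ethanol); points are libraries, lines join the means of each line, and the shaded band marks the step. EGR1, FOS, CCN2 and NR3C1 fall and NAB2, RELB, FKBP5 and SCNN1A rise between 1 h and 2 h in wt, SoF and Ctrl alike.

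The remaining immediate-early genes split evenly, with 8 rising and 7 falling of 19 tested and a median of -0.03. IER5L rose most, from 4.44 to 9.71 CPM at 1 h to 26.0 to 46.7 CPM at 2 h, a log2 fold change of 2.35 (SE 0.15). GADD45B, a stress sensor, rose by 0.90, and CSRNP1 and ARC rose by 0.81 and 0.96. MCL1, a survival factor with a short-lived RNA, fell by 0.72, and IER2 and PLK2 fell by 0.64 and 0.79. Of 17 KLF transcription factors 14 passed the filter on low counts, of which 8 rose and 2 fell, with a median of 0.51. KLF10, which responds to TGF-beta, went from a median of 255.5 CPM (198.8 to 508.1) to 784 CPM (642.9 to 966.2) and rose by 1.46 (SE 0.14). KLF16 and KLF13 rose by 1.70 and 1.23. KLF6 fell by 0.70, from 882 to 546 CPM on average.

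Among genes that restrain the MAP kinase pathway, more rose than fell. DUSP2, a nuclear phosphatase of ERK, went from 99.3 to 204.9 CPM at 1 h (median 151) to 364.2 to 616.1 CPM at 2 h (median 550), with no overlap, and rose by 1.73 (SE 0.11). DUSP7 rose by 1.63, SPRY2 by 0.55 and SPRED2 by 0.41. DUSP5 fell by 0.35, and DUSP6, at under 1 CPM, fell by 1.24. Of 18 such inhibitors 15 passed the filter, of which 8 rose and 3 fell, with a median of 0.26. In the GC-adjusted paired fit 7 rose and 3 fell, and the median was 0.09. Upstream of the same pathway, HBEGF, a ligand of the EGF receptor, lay at 32.2 to 76.7 CPM at 1 h (median 54.5) and 132.0 to 340.9 CPM at 2 h (median 232) and rose by 2.15 (SE 0.14). TGFA and EREG, ligands of the same receptor, rose by 0.65 and 0.60, and AREG did not pass the test at 0.28 but was called with the libraries paired (0.36). EGF itself fell by 0.61, a call that was lost without wt replicate 2 at 2 h, SoF replicate 2 at 1 h or SoF replicate 1 at 2 h (-0.51, -0.52 and -0.53).

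Genes of the NF-kB pathway rose together, both subunits and the inhibitors that they induce. Of 17 tested, 14 rose and 1 fell (median 0.71), against 11 and 1 in the GC-adjusted paired fit. RELB, a subunit of the non-canonical arm, went from a median of 24.6 CPM (11.5 to 36.1) to 83.0 CPM (73.7 to 110.7) and rose by 1.81 (SE 0.16, edgeR adjusted p = 6.07e-08). NFKB1, which encodes p105 and p50, went from 49.4 to 78.8 CPM to 101.2 to 234.1 CPM and rose by 1.54 (SE 0.15). In both genes every 2 h library lay above every 1 h library. The inhibitors TNIP1 and TNFAIP3 rose by 1.11 and 1.08. NFKBIA, which encodes IkB-alpha and is also raised by GR, went from a median of 612 CPM (533.6 to 715.4) to 1005 CPM (574.1 to 1055), with overlap, and rose by 0.58 (SE 0.12). NFKBIZ, an atypical nuclear IkB, was the exception, from 312.2 to 434.8 CPM to 109.6 to 197.9 CPM, a fall of 1.32 (SE 0.10). RELA, NFKB2 and BCL3 had log2 fold changes of 0.29, 0.62 and 0.77 that became -0.04, 0.21 and 0.20 and did not pass the test in the GC-adjusted paired fit.

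Of 25 cytokine and chemokine genes (the list includes PTGS2) 14 passed the filter, of which 8 rose and 1 fell, with a median of 1.03. With the libraries paired 9 rose and 2 fell. In the GC-adjusted paired fit 12 rose and 2 fell. CCL2, a monocyte chemoattractant, went from a median of 33.2 CPM (23.3 to 54.0) to 112 CPM (99.6 to 205.3) and rose by 1.82 (SE 0.16) without overlap. TNF rose by 2.17 (SE 0.34) from a low level, 0.260 to 5.66 CPM at 1 h and 5.56 to 18.8 CPM at 2 h. CSF2, IL11 and LIF rose by 1.67, 1.45 and 1.24, and CXCL8 by 1.24 with wide ranges, 47.2 to 347.4 CPM and 230.3 to 518.9 CPM. IL6, at 2.58 and 3.34 CPM, did not pass the test but was called as rising in the GC-adjusted paired fit (0.61). PTGS2, the inducible cyclooxygenase, went the other way, from 55.5 to 87.0 CPM to 11.8 to 21.1 CPM, a 4.47-fold fall. Outside these lists, CX3CL1, a membrane-bound chemokine, rose by 2.65 and CCL3, a macrophage chemokine, fell by 2.55.

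The promoters of NFKBIA (chr14:35404770-35404849, - strand) and TNFAIP3 (chr6:137867179-137867228, + strand) are printed from RefSeq on GRCh38.p14 because both genes feed back on NF-kB. Capitals mark matches to the NF-kB site and, in NFKBIA, TATAAA on the opposite strand.
NFKBIA: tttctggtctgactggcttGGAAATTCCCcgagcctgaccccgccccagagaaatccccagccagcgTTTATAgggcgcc
TNFAIP3: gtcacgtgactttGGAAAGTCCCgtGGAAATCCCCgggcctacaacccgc

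An NF-kB site was found on either strand in 8 of the 15 NF-kB pathway genes with a matched promoter (53.3%), in 12.8% of all 12508 promoters, and in 18.9% and 9.05% of those of strongly rising and strongly falling genes.

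Glucocorticoid-induced genes rose on the whole. Of 35 listed genes 31 were tested, 19 rose, 1 fell and 11 did not pass the test, with a median of 0.55. With the libraries paired 2 fell, DUSP1 and SGK1. Part of this list came from the study, which chose genes on these libraries, so the count is not independent evidence of direction. FKBP5, a co-chaperone that dampens GR, lay at 37.5 to 48.7 CPM at 1 h (median 39.5) and 75.3 to 121.0 CPM at 2 h (median 103) and rose 2.45-fold (log2 fold change 1.29, SE 0.12). SCNN1A, the alpha subunit of the epithelial sodium channel, went from a median of 8.62 CPM (4.97 to 14.99) to 28.2 CPM (21.3 to 45.0) and rose by 1.70 (SE 0.17). Groups did not overlap for either gene, and did not for 8 of the 31 in all, each higher at 2 h. Over all genes tested, 11.2% were higher at 2 h without overlap. IP6K3, an inositol hexakisphosphate kinase, rose by 1.48, ARRDC2, an alpha-arrestin, by 1.66, and the metal-binding gene MT2A by 0.83.

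Transcription factors on the same list also rose. CEBPB and CEBPD, regulators of the acute-phase and fat-cell programmes, rose by 1.61 (SE 0.18) and 1.38 (SE 0.14), ZBTB16 by 1.11 and KLF9 by 0.91. CEBPB went from 59.9 to 132.4 CPM at 1 h to 210.3 to 379.0 CPM at 2 h, above every 1 h library. PER1, a clock gene, rose by 0.45 over the 3 lines but had a log2 fold change of -0.03 in the GC-adjusted paired fit. The rises of KLF15 (0.76), TIPARP (0.41) and TXNIP (0.39) were lost when single libraries were left out, among them wt replicate 2 at 2 h for each of the 3 genes (0.62, 0.34 and 0.27). DUSP1, a MAP kinase phosphatase that is induced early by GR, fell by 0.44, from a median of 1538 CPM (1298 to 1974) to 1120 CPM (880.9 to 1504). TSC22D3 (GILZ) did not pass the test, with a mean of 40.8 CPM at 1 h and 52.1 CPM at 2 h. Nor did PDK4, SGK1, RGS2 or ERRFI1. SGK1 had a log2 fold change of -0.22 and was called as falling by DESeq2 (-0.24) and with the libraries paired (-0.23).

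**Figure D3:**
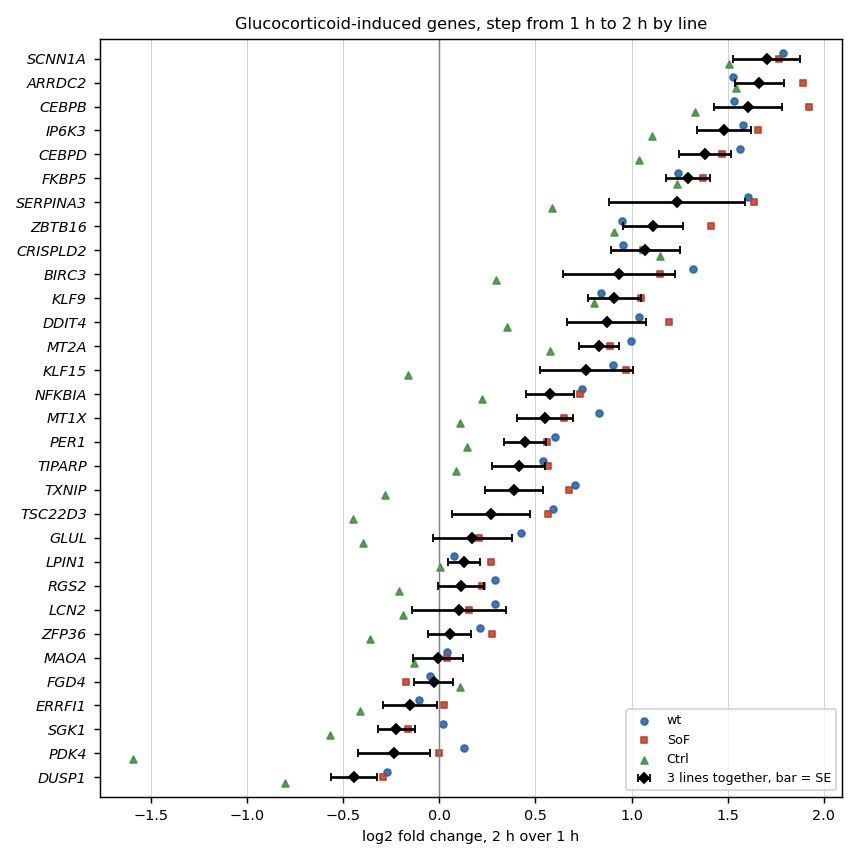
Log2 fold change from 1 h to 2 h of the 31 glucocorticoid-induced genes tested. Diamonds with bars are the 3 lines together with the standard error, and coloured points are wt, SoF and Ctrl alone. SCNN1A lies at 1.70 and DUSP1 at -0.44, and PDK4 in Ctrl lies apart at -1.59.

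The step was also tested within each line, with 2 libraries a time. Within wt, 4055 of 22486 genes were called (18.0%), with 2521 rising (11.2%) and 1534 falling (6.82%). Within SoF 4968 were called (22.1%), with 2847 rising (12.7%) and 2121 falling (9.43%), and within Ctrl 3028 (13.5%), with 1981 rising (8.81%) and 1047 falling (4.66%). These numbers hung on single libraries. Leaving out each of the 12 libraries in turn gave 1910 to 4108 genes in wt, with the lowest number without wt replicate 2 at 2 h. The range was 1397 to 5475 in SoF, lowest without SoF replicate 1 at 2 h, and 1118 to 3564 in Ctrl, lowest without Ctrl replicate 2 at 2 h. The ranges overlapped, so the lines were not ranked by them. Altogether 2099 genes were called in all 3 lines, with 1499 rising and 600 falling. Direct tests of the difference between lines called 0 genes in each of the 3 contrasts with edgeR's quasi-likelihood test. Before adjustment, 298 genes had a p under 0.05 for SoF against wt, 409 for Ctrl against wt and 268 for SoF against Ctrl, and DESeq2 called 0, 10 and 0. Each of the 3 edgeR numbers is below a share of 0.05 of the 22486 genes tested. That share would be due without any difference, so the test was conservative, and its 0 calls do not show that the lines agreed. The glucocorticoid-induced genes had a median step of 0.74 in wt, whereas SoF had 0.68 and Ctrl 0.11, and this difference was not tested for the list. PDK4, a kinase that restrains glucose oxidation, was at 36.3 and 38.2 CPM in wt at 1 h and 42.5 and 39.1 CPM at 2 h. In SoF it was at 44.3 and 58.5 CPM, then at 49.4 and 54.4 CPM. In Ctrl it was at 6.47 and 10.2 CPM, then at 1.80 and 3.55 CPM. It fell within Ctrl by 1.59 on the log2 scale. The difference of the step, Ctrl minus wt, was -1.72 (SE 0.35), which did not pass the adjusted test (adjusted p = 0.75).

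NR3C1 (ENSG00000113580.15, chromosome 5, 143277931 to 143435512, hg38) also fell. Reads from the introduced and the endogenous gene were counted together. Its mean in wt was 1444 CPM at 1 h and 589 CPM at 2 h. SoF had 5752 and then 1860 CPM, and Ctrl had 6564 and then 2377 CPM. Over the 3 lines together the median was 2628 CPM at 0 h (553.4 to 3400), 5429 CPM at 1 h and 1860 CPM at 2 h. The fall thus started from a 1 h median above the 0 h range. The 1 h and 2 h libraries did not overlap within any line, but did across lines, wt standing lowest at both times. The fall was 2.76-fold in all (log2 fold change -1.46, SE 0.12, adjusted p = 1.36e-08), with -1.30, -1.64 and -1.48 in wt, SoF and Ctrl. Of 20 genes for GR and its partners, 9 rose and 4 fell. The co-chaperones FKBP4 and STIP1 rose by 1.20 and 0.69, and the coactivators NCOA1 and NCOA2 fell by 0.34 and 0.44. Among 17 clock genes, 8 rose and 2 fell, against 5 and 1 in the GC-adjusted paired fit and 5 rising with upper-quartile factors, with BHLHE40, a repressor of the clock, rising by 1.38 and PER2 by 0.68.

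Targets of serum response factor and of YAP changed in both directions. CCN2, a matrix protein and YAP target, lay at 4199 to 6604 CPM at 1 h (median 4867) and 1188 to 2016 CPM at 2 h (median 1832), and fell by 1.54 (SE 0.13) without overlap. ANKRD1 and CCN1, targets of the same factor, fell by 1.07 and 0.84. Parts of the pathway itself also went both ways. TEAD3, WWTR1 and LATS2 rose by 0.92, 0.68 and 0.39, whereas AMOT and YAP1 fell by 0.76 and 0.32, as did TEAD1 and NF2 by 0.27 and 0.19. YAP1 and TEAD1 did not pass the test in the GC-adjusted paired fit (-0.12 and -0.06), and the calls of TEAD1 and NF2 were lost when single libraries were left out, among them wt replicate 1 at 2 h (-0.19 and -0.16). Of 24 YAP and Hippo genes tested, 11 rose and 8 fell, with a median of 0.04. TAGLN, an actin-binding marker of contractile cells, went from a median of 483 CPM (282.7 to 722.6) to 168 CPM (79.1 to 218.8) and fell by 1.66 (SE 0.21), and TPM1, CNN1 and LIMA1 fell by 0.78, 0.73 and 1.08. VCL and ACTN1, adhesion proteins, rose by 1.02 and 0.66. Of 31 SRF targets and actin genes, 11 rose and 9 fell, against 7 and 13 in the GC-adjusted paired fit.

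Among 26 tested TGF-beta and BMP feedback genes, 14 rose and 5 fell, with a median of 0.38. TGFB1, the ligand, went from 24.5 to 38.3 CPM to 55.5 to 88.6 CPM and rose by 1.21 (SE 0.08), and its repressors TGIF1 and SKI rose by 1.24 and 0.94. The inhibitors of DNA binding ID1, ID2, ID3 and ID4, which report BMP signalling, rose by 0.87, 0.99, 0.66 and 0.64, but ID3 was not called by DESeq2 (0.64) or when any one of 5 libraries was left out (0.49 to 0.58). FST, an activin antagonist, went from 71.9 to 100.2 CPM to 29.6 to 48.0 CPM and fell by 1.16. In the group of matrix proteases and plasminogen genes, 9 of 17 rose and 2 fell, against 10 and 5 with the libraries paired and 4 falling with upper-quartile factors. TIMP1, an inhibitor of matrix proteases, rose by 1.24 and PLAUR, the urokinase receptor, by 1.13, whereas the proteases ADAMTS1 and ADAMTS5 fell by 1.45 and 1.06. LFNG, a glycosyltransferase of the Notch pathway, went from 82.7 to 159.0 CPM to 313.8 to 594.7 CPM and rose by 1.94 (SE 0.08), and the Notch target HES1 rose by 0.99. Of 18 Notch and HES genes 11 passed the filter, of which 5 rose and 0 fell, against 4 and 2 in the GC-adjusted paired fit.

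Genes for making ribosomes rose almost as a block. Of 34 ribosome biogenesis factors tested, 27 rose and 0 fell, with a median of 0.57. In 18 of them every 2 h library lay above every 1 h library, as it did in 11.2% of all genes tested. In the GC-adjusted paired fit 33 rose and 0 fell, and the median transcript GC content of the list, 46.7%, was below that of all genes, 48.2%. With upper-quartile factors 2 fell. BOP1, which acts in large-subunit assembly, went from a median of 24.4 CPM (19.1 to 28.5) to 77.6 CPM (54.4 to 90.0) and rose by 1.62 (SE 0.11). NOP56, a core protein of box C/D snoRNPs, went from 155.0 to 233.1 CPM to 299.0 to 408.4 CPM and rose by 0.90 (SE 0.08). MYBBP1A, RRP9 and NOP2 rose by 1.18, 1.02 and 0.92. The abundant nucleolar proteins NCL and NPM1 did not pass the test at 0.17 and 0.15, although NCL was called with the libraries paired (0.16). Both were called as rising in the GC-adjusted paired fit (0.27 and 0.42). Of 81 cytosolic ribosomal protein genes, 35 rose and 2 fell with a small median of 0.16, against 51 and 1 in the GC-adjusted paired fit and 7 falling with upper-quartile factors.

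MYC, an activator of ribosome biogenesis, fell at the same time. It went from a median of 1075 CPM (887.3 to 1222) to 634 CPM (528.3 to 796.6) without overlap, a fall of 0.69 (SE 0.11). Its antagonist MNT rose by 1.32 and MXD3 and MXD4 by 0.89 and 0.75, and of 12 genes of the network 6 rose and 1 fell, against 6 and 2 with the libraries paired and 9 and 2 in the GC-adjusted paired fit. The promoter of UTP20, a small-subunit processome factor that rose by 0.26 (chr12:101280045-101280104, + strand, RefSeq, GRCh38.p14), is printed with the E-box CACGTG, a site of the MYC network, in capitals. It is shown as an example of an E-box next to the start site, and its rise was not called when any one of 4 libraries was left out (0.21 to 0.23).
UTP20: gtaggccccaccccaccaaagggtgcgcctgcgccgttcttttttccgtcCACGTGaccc

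CACGTG was found in 11 of the 28 ribosome biogenesis genes with a matched promoter (39.3%) and in 9.76% of all 12508 promoters.

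Heat shock and NRF2 antioxidant genes also rose on the whole, whereas ATF4 and p53 target genes did not. Of 26 ATF4 amino acid response genes tested 7 rose and 5 fell (median -0.14). Of 20 p53 target genes tested 6 rose and 7 fell (median -0.03). Of 23 heat shock genes tested 15 rose and 2 fell, with HSF1, the master regulator, at 0.88, HSPE1 at 0.52 and CRYAB at 0.91. DNAJB4 and CHORDC1 fell by 1.08 and 0.85. Of 17 NRF2 antioxidant genes 13 rose and 2 fell, led by TXN, which encodes thioredoxin and rose by 0.89, with 12.2 to 15.4 CPM at 1 h and 23.2 to 29.9 CPM at 2 h. PGD, an enzyme of the pentose phosphate pathway, rose by 0.59.

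Histone genes rose. The list took all genes with replication-dependent histone symbols, 78 in the table, of which 52 were tested, 41 rose and 1 fell, with a median of 0.73 and a median GC content of 58.5%. With the libraries paired 46 rose and 2 fell. In the GC-adjusted paired fit 38 rose, 4 fell and the median was 0.38. H2AC18 and H2AC19, near-identical copies with almost the same mean levels (802 and 804 CPM at 1 h, 1536 and 1539 CPM at 2 h), cannot be told apart, and the same doubt holds for other members of these clusters. H3C10 went from 30.3 to 53.7 CPM to 60.5 to 109.2 CPM and rose by 0.94 (SE 0.09). The H2AC6 promoter (chr6:26124062-26124151, + strand, RefSeq, GRCh38.p14) is printed for the layout common in this family, with CCAAT on either strand and TATAAA in capitals.
H2AC6: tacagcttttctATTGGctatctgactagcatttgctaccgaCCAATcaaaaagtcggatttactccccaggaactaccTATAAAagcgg

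Of 47 histone genes with a matched promoter, 37 held CCAAT (78.7%) and 34 held TATAAA (72.3%), on either strand, against 36.4% and 6.36% of all promoters. H2AC6 itself rose by 0.67, from 108.0 to 145.4 CPM to 159.4 to 236.3 CPM. Genes of mitosis had the opposite direction to the histone genes. Of 23 tested, 13 fell and 3 rose, with a median of -0.34. Their median GC content was 41.9%, and in the GC-adjusted paired fit 7 fell and 5 rose. CENPE, a kinetochore motor, went from 136.2 to 187.4 CPM to 61.4 to 85.9 CPM and fell by 1.09 (SE 0.07), and CENPF and TTK fell by 0.69 each. CDC20 and PLK1 rose by 0.70 and 0.63. In bulk RNA, fewer cells of a stage and less RNA per cell cannot be told apart. Of 25 genes of DNA replication and E2F, 8 rose and 3 fell, with a median of 0.05, against 3 and 5 with upper-quartile factors and 12 and 4 in the GC-adjusted paired fit.

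Of a list of 11 abundant long noncoding RNAs, drawn up for nuclear ones, 9 fell and 0 rose, and in the GC-adjusted paired fit 8 fell. The list also holds NORAD and CYTOR, which are known mainly from the cytoplasm and fell by 0.34 and 0.49, so it does not separate nuclear from other RNAs. NORAD did not pass the test in the GC-adjusted paired fit (-0.08). MALAT1 went from a median of 3697 CPM (2317 to 4055) to 2410 CPM (1777 to 2789), with overlap, and fell by 0.57 (SE 0.12). NEAT1, the scaffold of paraspeckles, fell by 0.57 and KCNQ1OT1, an imprinted antisense RNA, by 0.60. Over all long noncoding RNAs, 1460 of 4510 fell (32.4%) and 526 rose (11.7%), whereas among protein-coding genes 2995 of 14249 fell (21.02%) and 4865 rose (34.1%). The SR proteins and splicing kinases counted 9 falling and 5 rising of 19, and this became 5 falling and 9 rising with the GC trend removed and paired (median GC content 41.0%). With upper-quartile factors 2 rose. TRA2B, a splicing activator, fell by 0.73, and by 0.46 there. Of 24 genes of transcription elongation control 14 rose and 3 fell, with ELL and SUPT5H rising by 0.69 and 0.58 and CCNL1, a cyclin of a splicing-linked kinase, falling by 0.70.

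**Figure D4:**
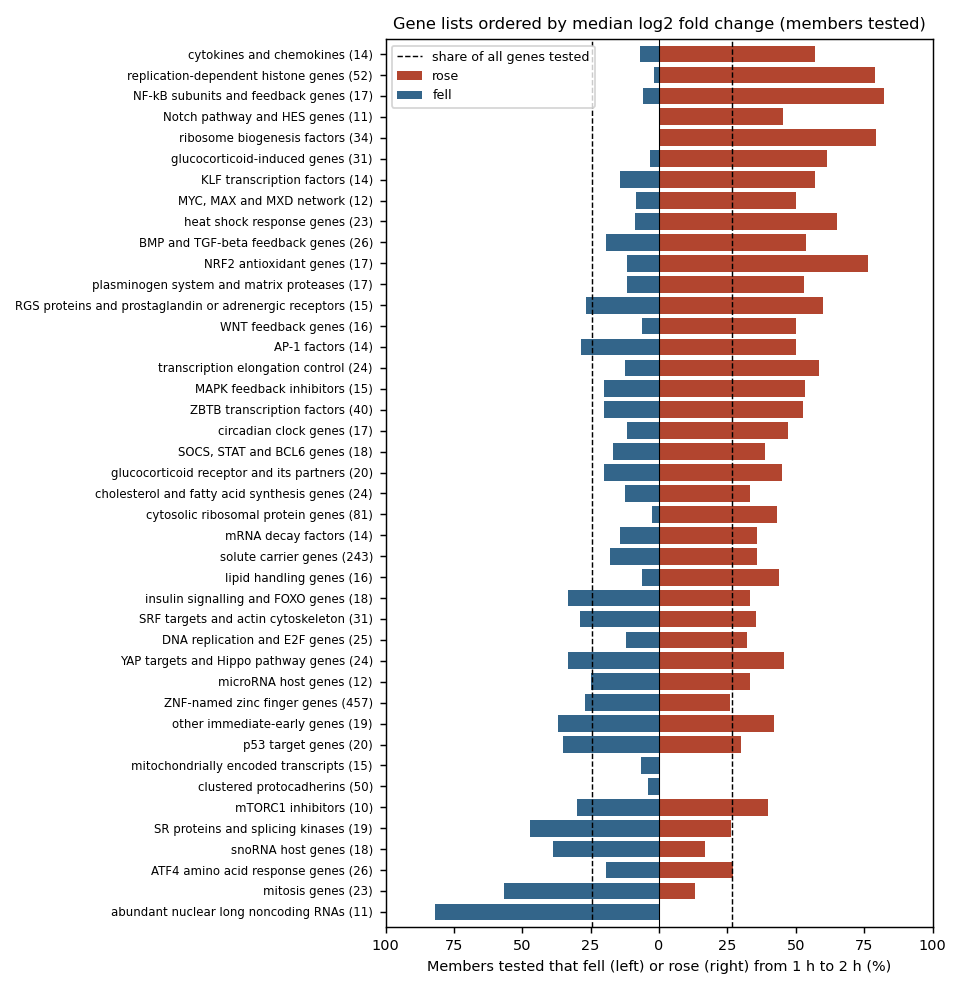
Share of the tested members of each gene list that fell (left, blue) or rose (right, red) from 1 h to 2 h, in percent, with lists of at least 10 tested members ordered by median log2 fold change and the number tested in brackets. Dashed lines mark the shares over all genes tested, 24.5% falling and 26.7% rising. Histone, NF-kB and ribosome biogenesis genes reach furthest to the right, and mitosis genes and the listed abundant long noncoding RNAs furthest to the left.

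Large gene families were taken whole. Of 457 tested ZNF-named zinc finger genes, 118 rose and 124 fell, close to the shares of all genes, but 175 rose and 58 fell in the GC-adjusted paired fit. Of 243 solute carrier genes, 87 rose and 44 fell, and SLC6A8, the creatine transporter, rose by 1.33. Of 50 clustered protocadherins 0 rose and 2 fell, against 6 falling with the libraries paired, 9 in the GC-adjusted paired fit and 8 with upper-quartile factors. Of 15 mitochondrially encoded transcripts only MT-ND6 fell, by 0.40, while 8 rose and 0 fell in the GC-adjusted paired fit.

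Several of the largest rises belonged to genes outside these lists. KREMEN2, a receptor for Dickkopf proteins in WNT signalling, lay at 0.516 to 2.02 CPM at 1 h (median 0.848) and 11.6 to 25.3 CPM at 2 h (median 16.9), a 16.2-fold rise (log2 fold change 4.02, SE 0.20). METTL7B, a thiol methyltransferase, went from 1.82 to 4.86 CPM to 27.8 to 43.1 CPM, an 11.7-fold rise (SE 0.14 on the log2 scale). At 3 h both were lower than at 2 h on average, at 9.44 and 18.5 CPM, and still above their 0 h means of 2.18 and 2.78 CPM. Both have exons that overlap a gene on the opposite strand, as do LRFN4, CBARP, CCL3, PTGS2, LINC02577 and GLIPR1. SEPTIN5, a cytoskeletal GTPase gene, had the smallest p and went from 20.2 to 36.0 CPM to 136.0 to 193.0 CPM (log2 fold change 2.64, SE 0.09, adjusted p = 2.44e-13). It shares exons on its own strand with a readthrough gene and lies beside GP1BB, which rose by 2.77, so reads of the 3 cannot be fully separated. VASN, a transmembrane protein that binds TGF-beta, and VGF, a neuropeptide precursor, rose by 2.42 and 2.59. Among falling genes, the interferon-inducible GTPases GBP1 and GBP2 fell by 2.00 and 1.80. All 24 genes with the largest changes had libraries that did not overlap within any of the 3 lines, and 23 of them did not overlap across the 6 libraries of each time either, the exception being KLF7-IT1. These genes were chosen for large called changes in the same libraries, so the lack of overlap is not independent evidence.

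Transcript GC content ran with the direction of change. Across 21626 genes, which share libraries and are not independent, Spearman's rho between GC content and log2 fold change was 0.53. Taken alone, wt gave 0.51, SoF 0.52 and Ctrl 0.46. In the lowest of 10 equal bins of GC content (23.1% to 38.5%) the median log2 fold change was -0.38, with 3.37% of genes rising and 56.0% falling. In the highest bin (61.2% to 83.9%) it was 0.55, with 63.9% rising and 2.22% falling. Gene span had a weaker relation (rho -0.13), with a median of -0.28 in the longest of 10 bins. Transcripts of the 12 named genes with the largest falls held from 35.9% GC (GLIPR1) to 65.9% (EGR4), and their log2 fold changes in the GC-adjusted paired fit ran from -3.15 for EGR4 to -1.38 for GLIPR1.

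**Figure D5:**
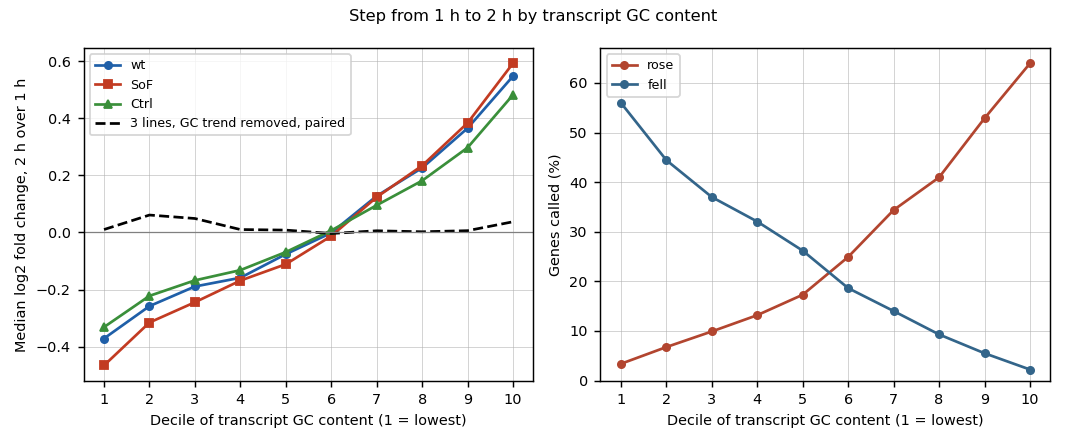
Left, median log2 fold change from 1 h to 2 h in each of 10 bins of transcript GC content for wt, SoF and Ctrl, with the dashed line for the 3 lines after the GC trend was removed and libraries were paired. Right, percent of genes called as rising or falling in each bin. The medians climb from -0.38 to 0.55 over the 3 lines, and the dashed line stays near 0.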

How the data were processed

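Exon read counts per gene of 24 libraries were used as the authors deposited them. Per the labels and the study's methods, the authors extracted molecular identifiers with UMI-tools (1.1.2), trimmed with Trim Galore (0.6.6), aligned to hg38 with STAR (2.7.3a) and counted with featureCounts over GENCODE 39. Strand-aware counting is stated only in the title of the deposited table.

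The 12 libraries at 1 h and 2 h were tested with edgeR (4.0.16, in R 4.3.3) by its quasi-likelihood test, with TMM factors, line and time as terms, genes kept by filterByExpr (minimum count 10, minimum total 15) and Benjamini-Hochberg adjustment at 0.05. Each line and the differences between lines were tested in a fit of 6 groups. Standard errors were recovered from the fold change and the square root of the F statistic. Symbols and transcript GC content came from GENCODE 44, which matched 61369 of 61533 identifiers. Library totals at 1 h and 2 h were 9056350 to 15060777 counts.

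Alternatives were other scaling, no filter, DESeq2 (1.42.0), all 24 libraries, no line term, a replicate block and leaving out each library. Removing each library's GC trend (a cubic of degree 3), alone or with the pairing, was chosen after seeing the data. Deviations of same-numbered libraries at 1 h and 2 h correlated at 0.364 in wt, 0.344 in SoF and 0.156 in Ctrl over 21690 genes, so numbers were taken as pairs from the data. On counts simulated with a coefficient of variation between replicates of 12.2%, the step recovered 200 of 200 changed genes with 13 false calls. That count was not split by size of change or by level, and recovery of small changes or of low-count genes was not tested separately. Recovery in the measured counts, whose GC trend moved with time, was not tested.

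The gene lists and the comparison were chosen with earlier results of these data known. Genes named were the 12 largest rises and falls at a mean of at least 5 CPM with the same sign in the 3 lines, the 3 smallest p in each direction, up to 4 called members per list by p (or up to 2 abundant uncalled ones), NR3C1 and the glucocorticoid-induced genes. The following were chosen after their values were seen: AMOT, ARC, AREG, BATF3, BCL3, CNN1, CRYAB, CSF2, CSRNP1, CXCL8, CYTOR, DUSP5, DUSP6, EGR3, FN1, H2AC6, HSPE1, ID1, ID2, ID3, ID4, IER2, IL6, JUN, JUNB, JUND, LATS2, LIF, MALAT1, MXD3, MYC, NCL, NCOA1, NCOA2, NEAT1, NF2, NFKB2, NORAD, NPM1, NR4A1, NR4A2, NR4A3, PLK1, PLK2, RELA, RRP9, SPRED2, SRF, TEAD1, TNF, TNFAIP3, TPM1, UTP20, VCL, VIM, WWTR1, YAP1.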

Additional observations from a re-analysis of the deposited data

How the results depend on the processing

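Called genes in the step numbered 9989 (without SoF replicate 1 at 2 h) to 11266 (without wt replicate 2 at 1 h) when each library was left out, 10579 with DESeq2, 9607 with the GC trend removed, and 12925 with the replicate block, which pairs libraries by line and number. Requiring an absolute log2 fold change of at least 1 left 1843. Within single lines, removing the GC trend gave 2381 genes in wt, 2979 in SoF and 1822 in Ctrl. Leaving out 1 library gave 1910 to 4108 in wt (2423 lacking the first library at 1 h, 2582 and 1910 lacking the first and the second at 2 h), 1397 to 5475 in SoF (leaving out replicate 1 or replicate 2 at 1 h gave 3034 and 1807, and replicate 1 at 2 h 1397) and 1118 to 3564 in Ctrl (1731 and 1555 without replicate 1 and replicate 2 at 1 h, 1728 and 1118 at 2 h). The lone library was then assumed to vary like the other groups. With no filter on low counts, differences between lines were called for 11 genes (SoF against wt), 14 (Ctrl against wt) and 4 (SoF against Ctrl), DESeq2 called 10 for Ctrl against wt, and leaving out 1 library gave 0 to 1, 0 and 0, the 1 being without SoF replicate 2 at 2 h. PER1 reversed from a log2 fold change of 0.45 to -0.039 with the GC trend removed and to -0.026 with the pairing added. Of 238 genes named by rule, 214 kept direction and call in the GC-adjusted paired fit, 14 lost and 9 gained a call, and the replicate block gained 3 calls (DDIT3, MTF1 and SGK1) and lost 0. Among genes named after their values were seen it gained AREG, NCL and NR4A3 and changed no other call. Of those, JUND reversed to -0.22 and RELA to -0.049 with the GC trend removed (-0.22 and -0.041 with the pairing added). Of 104 list counts, 31 moved by over 1.5 times in the GC-adjusted paired fit, 12 with the replicate block and 17 with upper-quartile factors. The causes were not tested.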
